A study of Mus musculus with 4 samples.

Results

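The genes described here are the Trav genes, the variable gene segments of the T cell receptor alpha chain, in sorted CD4 T cells of the gut. They were taken as every gene whose symbol starts with Trav, which gave 128 members among the 31053 genes of the count matrices. The cells came from the lamina propria of the small intestine, taken from C57Bl/6 mice that were wild type. The 4 libraries, made with 5′ droplet chemistry, formed 1 group, and the labels do not say that each held the cells of exactly 1 mouse. Living CD45+CD3+CD4+ cells had been sorted after the Peyer's patches were removed, with no treatment or mutation to compare. The comparison is therefore between classes of cells within the same libraries, and p-values rest on how differences between classes vary over libraries.

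Each developing T cell joins 1 Trav segment to 1 joining segment on chromosome 14, and the joined exon, spliced to the constant segment Trac, makes the part of the alpha chain that touches antigen and the presenting molecule. The second allele is often joined as well, so that a cell can carry RNA of more than 1 Trav gene. The mouse locus holds repeated blocks, whose copies carry a d or an n in their symbols and can be almost identical to the undesignated gene. Most receptors pair a Trav gene with many Trbv genes of the beta chain. Innate-like T cells are an exception: NKT cells of the mouse use Trav11 and MAIT cells use Trav1, each with a fixed joining segment. A clone that expands carries its Trav and Trbv genes with it, whatever program its cells run.

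Cells were grouped by the first match in a fixed order of marker transcripts, counted as unique molecules (UMIs). The Foxp3 gate held cells with at least 1 UMI of Foxp3, the factor of regulatory T cells. The Il17a gate held cells with at least 1 UMI of that barrier cytokine. The Cd8a gate needed 1 UMI of the CD8 alpha chain, which gut CD4 T cells can acquire. The Ifng gate needed 1 UMI of interferon gamma, and the Gzma gate at least 10 UMIs of granzyme A. All other cells formed the rest. No Trav gene took part in the gates. Of 21501 cells analysed, 16430 had a Trav UMI, and each was assigned to the Trav gene with most UMIs, called its leading gene. These were 1218 cells of the Foxp3 gate, 480 of the Il17a gate, 322 of the Cd8a gate, 4765 of the Ifng gate, 1105 of the Gzma gate and 8540 of the rest.

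The 4 libraries held 23918884 to 28783972 UMIs in all, and their cells had medians of 3630 to 4174 UMIs. Cd3e was found in 99.3% ± 0.0346 of cells (SD, n = 4 libraries), Cd4 in 74.8% ± 2.02 and Trac in 73.6% ± 2.39. Among 22632 distinct barcodes, 270 occurred in more than 1 library. Both copies of 124 of these had a Trav UMI, and 7 of the 124 had the same leading gene. Among all cells, 76.4% ± 3.20 had a Trav UMI. None of 32 barcodes with the transcripts of other cell types had one, which allows a share of up to 9.38%, at a median of 6786 UMIs against 3848 in all cells. They were chosen for having no CD3 transcript, so this 0 says little of free Trav RNA.

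Before any usage can be read, the sequences show which Trav genes short reads can tell apart. The stretches of 100 bases that follow come from the second exon of each gene, from the GENCODE transcripts of mouse build GRCm38, plus strand of chromosome 14. The Trav11 family is shown because it marks NKT cells. Capitals mark the bases at which Trav11n and the other copies differ.
Trav11 (chr14:53519699-53519798): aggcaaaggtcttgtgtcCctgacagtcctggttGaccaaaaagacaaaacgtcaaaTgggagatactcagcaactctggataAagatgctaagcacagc
Trav11d (chr14:52824753-52824852): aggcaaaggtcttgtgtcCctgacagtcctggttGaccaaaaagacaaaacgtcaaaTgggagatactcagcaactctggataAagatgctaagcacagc
Trav11n (chr14:53135518-53135617): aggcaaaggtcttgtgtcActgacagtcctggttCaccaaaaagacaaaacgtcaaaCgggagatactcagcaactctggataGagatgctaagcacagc
Trav11 and Trav11d were identical at all 342 transcript bases they share, and Trav11n, annotated as a pseudogene, differed from Trav11 at 8 of 343. The most used gene and its copy are shown for the same reason in the same way, with capitals at the single base that differs there.
Trav7-4 (chr14:53461557-53461656): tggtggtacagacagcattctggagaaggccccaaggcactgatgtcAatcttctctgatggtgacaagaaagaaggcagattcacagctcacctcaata
Trav7d-4 (chr14:52770211-52770310): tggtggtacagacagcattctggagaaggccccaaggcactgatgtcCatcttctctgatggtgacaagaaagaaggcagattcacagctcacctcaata
Over the whole transcripts, this pair differed at 2 of 451 bases. Trav1, shown for contrast, had no close copy. Its nearest member differed at 117 bases of the exon.
Trav1 (chr14:52428724-52428823): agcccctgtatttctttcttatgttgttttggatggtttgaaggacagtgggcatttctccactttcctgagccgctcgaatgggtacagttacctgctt

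The annotation placed all 128 members on the plus strand of chromosome 14, between 52427928 and 53977678, a span of 1550 kb. It called 108 of them variable genes and 20 pseudogenes. For 42 members the last exon was identical to that of another member, and for 66 it differed from one at no more than 3 bases. In a simulated read of 90 bases, 38 members had no stretch of their own. None of these 38 led in as many as 40 cells, 24 of them led in no cell, and together they led in 25 cells, 0.152% of the cells with a Trav UMI. The 68 members with at least 50% of stretches unique to them led in 13503 cells, and the 22 between these classes in 2902. The low counts of the 38 members therefore do not show whether these genes are used. What cells that carry such a gene show instead was not tested.

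Usage was broad and lay toward one end of the locus. In all, 93 members led in at least 1 cell and 59 in at least 40 cells. When the span was split into 3 equal stretches of 517 kb, the stretch farthest from Trav1, nearest to the joining segments, held the leading gene of 69.5% ± 2.09 of cells. The middle one held 21.5% ± 2.90 and the one that starts with Trav1 9.04% ± 2.33. The number of members without a unique stretch was 1 of 42 in the farthest stretch, 24 of 52 in the middle one and 13 of 34 in the first, and their part in this slope was not tested. By gate, the farthest stretch held 64.6% ± 9.95 of Foxp3 gate cells and 73.1% ± 7.32 of Il17a gate cells, against 68.7% ± 1.69 of the rest. Undesignated genes (55 members) led in 75.1% ± 1.80 of cells, d copies (39 members) in 12.0% ± 1.59 and n copies (34 members) in 12.9% ± 2.41. Some d and n copies, such as Trav12d-1 and Trav12n-1, have the same last exon. The part of members without a unique stretch in this split was not tested either. Among subgroups of related genes, Trav7 led in 17.8% ± 3.31 of cells and Trav14 in 16.4% ± 2.54.

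**Figure D1:**
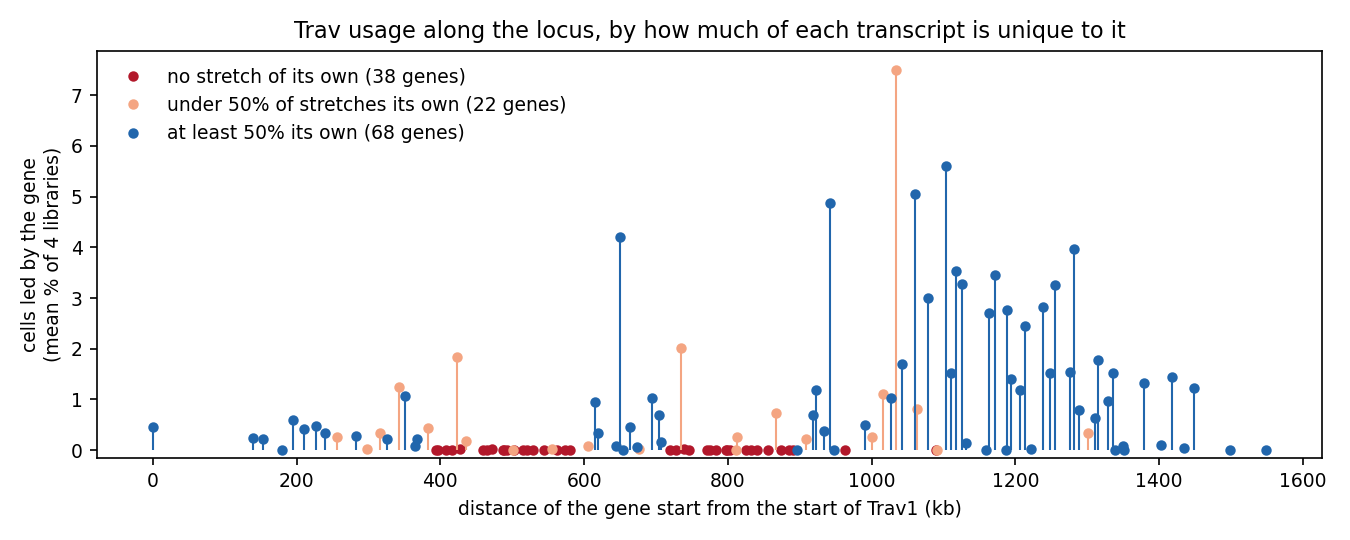
Usage of the 128 Trav genes along the locus. The x axis is the distance of the gene start from the start of Trav1 in kb, the y axis the mean share of cells led by the gene over 4 libraries (% of cells with a Trav UMI), and colour the share of 90-base stretches found in no other member. The 38 genes with no stretch of their own lie at or near 0, most of them in the middle of the locus, and the tallest bar is Trav7-4 at 7.50%.

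Trav7-4 (ENSMUSG00000094766, chr14:53461099-53461738) was the most used gene. It led in 8.86%, 6.54%, 5.41% and 9.18% of cells in libraries 1 to 4, 1222 cells in all. Trav7-5 (ENSMUSG00000106620, chr14:53530786-53531313) followed with 2.47%, 8.70%, 4.33% and 6.86%, so that library 2 was high and library 1 low. Trav9-1 stayed between 4.61% and 6.05%, the narrowest range among the 10 most used genes. Trav14n-3 led in 4.88% ± 1.60, Trav6-7-dv9 in 3.97% ± 1.41, Trav13-1 in 3.53% ± 1.35 and Trav4-3 in 3.45% ± 1.52 of cells. Trav14d-3-dv8 led in 4.37% to 6.24% of cells in libraries 1, 2 and 4, and in 0.906% in library 3. Trav14-1 was at 7.98% in library 2 and at 1.26% to 2.11% in the others. Trav4-4-dv10 was at 5.70% in library 3 and at 2.11% to 2.70% in the others. Neighbours in the order of means differed by less than the larger of their SDs.

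**Figure D2:**
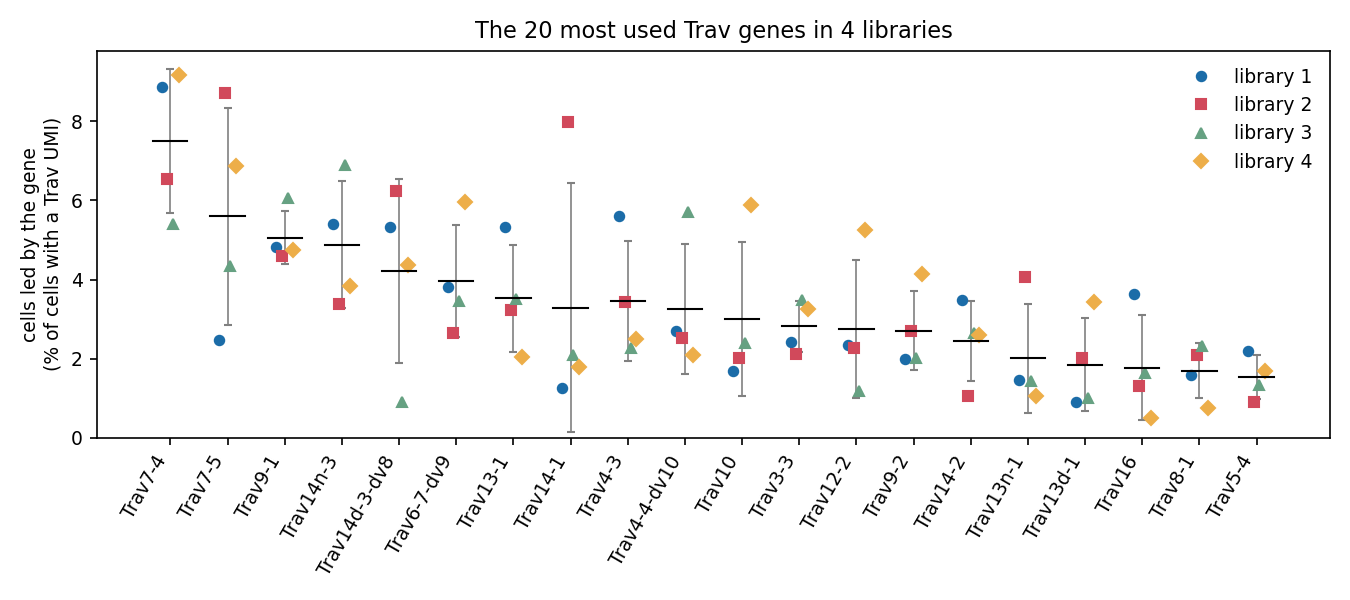
The 20 most used Trav genes. Each symbol is the share of cells with a Trav UMI that the gene led in 1 library, the black line the mean and the grey bar the SD over 4 libraries. Trav7-4 has the highest mean (7.50%), and Trav14-1 in library 2 (7.98%) stands apart from the other libraries.

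Among genes that led in at least 40 cells, the 5 with the largest ratio of the highest to the lowest library share were each found mostly with 1 beta chain partner in the library where they were high. The pseudogene Trav4d-2 led in 44 cells of library 1 and in 0, 2 and 0 cells of libraries 2, 3 and 4. Trbv1 was the partner in 40 of those 44 cells. Trav8d-2 led in 2.42% of cells of library 2, with Trbv3 in 80 of 107 cells, and in 1.10% of library 3, with Trbv20 in 33 of 42, against 0.0758% and 0.208% in libraries 1 and 4. Trav8d-1, Trav6-4 and Trav6-1 were high in library 3, at 3.11%, 2.82% and 1.18% of cells, with Trbv19 (78 of 126 cells), Trbv26 (76 of 108) and Trbv19 (35 of 46). Elsewhere each of the 3 genes stayed at or under 0.606%.

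The most frequent pair of a Trav and a Trbv gene was another one in each library. Trav4-3 with Trbv3 led in library 1 with 143 cells, against 40, 19 and 19 in libraries 2, 3 and 4. Trav14-1 with Trbv16 made up 315 cells of library 2, 7.25% of its cells with both genes, against 3, 28 and 3 cells in libraries 1, 3 and 4. In library 3, Trav4-4-dv10 with Trbv31 held 156 cells, against 14, 4 and 1 in libraries 1, 2 and 4. In library 4, Trav6-7-dv9 with Trbv16 held 165 cells, against 1, 4 and 2 in libraries 1, 2 and 3. Each library therefore had frequent pairs that were rare or absent in the others. Pairs held by at least 20 cells numbered 41 to 45 per library and made up 44.6% to 56.6% of its cells with both genes. A shared pair does not establish a clone, because the joined sequence is not in these counts.

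The gates differed in how concentrated their Trav usage was. The measure was the chance that 2 cells of 1 gate and library have the same leading gene. In the Il17a gate it was 8.79%, 6.75%, 8.61% and 7.99% in libraries 1 to 4, against 3.56%, 3.67%, 2.95% and 3.65% in the rest. Every Il17a value lay above every value of the rest. The Gzma gate had 4.12%, 6.34%, 4.88% and 6.49%, also above the rest in 4 of 4 libraries. For both gates an exact paired permutation test over the 4 libraries, two-sided, gave p = 0.13, the smallest this design allows, so that no gate could pass 0.05. The Cd8a gate ranged from 3.16% to 12.7% (exact p = 0.25), the Ifng gate averaged 3.83% ± 0.591 (exact p = 0.25) and the Foxp3 gate 3.23% ± 0.852 (exact p = 0.5), against 3.46% ± 0.341 in the rest. When the most frequent Trav-Trbv pair of each library and gate was left out, the Il17a value was 5.39% ± 0.691, against 3.28% ± 0.374 in the rest, still higher in 4 of 4 libraries.

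The most used gene of the Il17a gate was another one in each library. Trav7-4 led in 25.5% of its cells in library 1, Trav7-5 in 16.0% in library 2, Trav8-1 in 23.4% in library 3 and Trav14d-3-dv8 in 20.5% in library 4. In library 2, Trav7-5 was also the top gene of the Cd8a gate (16.25%), the Gzma gate (16.9%) and the Ifng gate (10.4%), and in library 1 Trav7-4 was the top gene of the rest (9.59%). Their pairs were Trav7-4 with Trbv15 (29 cells of the gate), Trav7-5 with Trbv19 (14), Trav8-1 with Trbv20 (17) and Trav14d-3-dv8 with Trbv17 (21). These pairs were not confined to the gate. Trav7-4 with Trbv15 held 106 cells of library 1, of which 58 were in the rest and 19 in the Ifng gate. Trav8-1 with Trbv20 held 65 cells of library 3, of which 35 were in the rest.

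The Foxp3 gate held few cells of frequent pairs. Of its cells with both genes, 8.33%, 15.4%, 12.5% and 22.0% in libraries 1 to 4 belonged to a pair held by at least 20 cells of the library, against 46.4%, 56.4%, 45.2% and 51.3% in the rest. The groups did not overlap. The Il17a gate had 70.0% ± 4.84 and the Gzma gate 65.0% ± 8.22, higher than the rest in 4 of 4 libraries. For each of these 3 gates the exact paired permutation test gave p = 0.13, the smallest possible. The Ifng gate (52.3% ± 7.92) and the Cd8a gate (46.2% ± 16.9) lay on both sides of the rest (exact p = 0.25 and 0.875). Pairs were counted over all gates of a library, so that a gate with more cells supplies more of them. The rest held 8540 of the 16430 cells with a Trav UMI and the Foxp3 gate 1218, and the part of gate size in the difference was not tested. This measure was chosen after the data were seen.

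**Figure D3:**
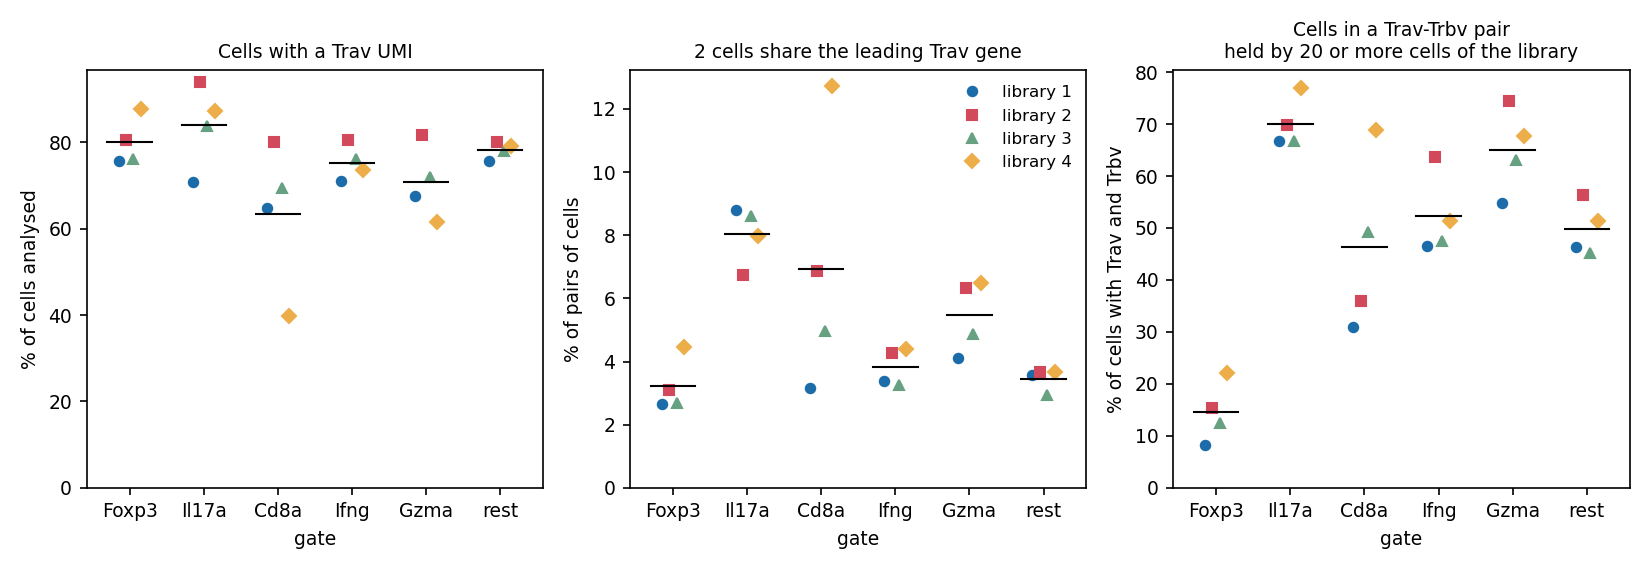
Trav detection and usage by gate. Each symbol is 1 library and each black line the mean of 4; the y axes give the share of cells with a Trav UMI, the chance that 2 cells share the leading Trav gene, and the share of cells in a Trav-Trbv pair held by at least 20 cells of the library. Detection is lowest in the Cd8a gate of library 4 (39.9%), the Il17a gate lies above the rest in the middle panel, and the Foxp3 gate lies at 8.33% to 22.0% in the right panel.

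Pairs were then matched between gates. A cell of the Foxp3 gate and a cell of the rest of the same library had the same Trav-Trbv pair with a chance of 0.171%, 0.302%, 0.301% and 0.257% in libraries 1 to 4. Against the rest of the other 3 libraries the chance was 0.150%, 0.186%, 0.180% and 0.212%. For the Il17a gate the values were 1.31% ± 0.289 in the same library and 0.273% ± 0.0944 across libraries. For the Gzma gate they were 1.38% ± 0.509 and 0.334% ± 0.0632, for the Ifng gate 1.04% ± 0.382 and 0.252% ± 0.0438, and for the Cd8a gate 0.869% ± 0.262 and 0.232% ± 0.0286. A pair of cells of the rest itself matched with a chance of 0.981% ± 0.261 within a library and 0.266% ± 0.0435 across libraries. The match within a library was above that across libraries in 4 of 4 libraries for all 5 gates. Every value of the Foxp3 gate within a library lay below every such value of the other 4 gates. Among themselves, however, 2 cells of the Foxp3 gate had the same pair with a chance of 0.843%, 0.578%, 0.480% and 1.46% within libraries 1 to 4. Across libraries this chance was 0.174% ± 0.0275. The Il17a, Cd8a, Gzma and Ifng gates had 4.92% ± 1.45, 4.43% ± 2.81, 2.78% ± 1.01 and 1.37% ± 0.564 among their own cells within a library.

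**Figure D4:**
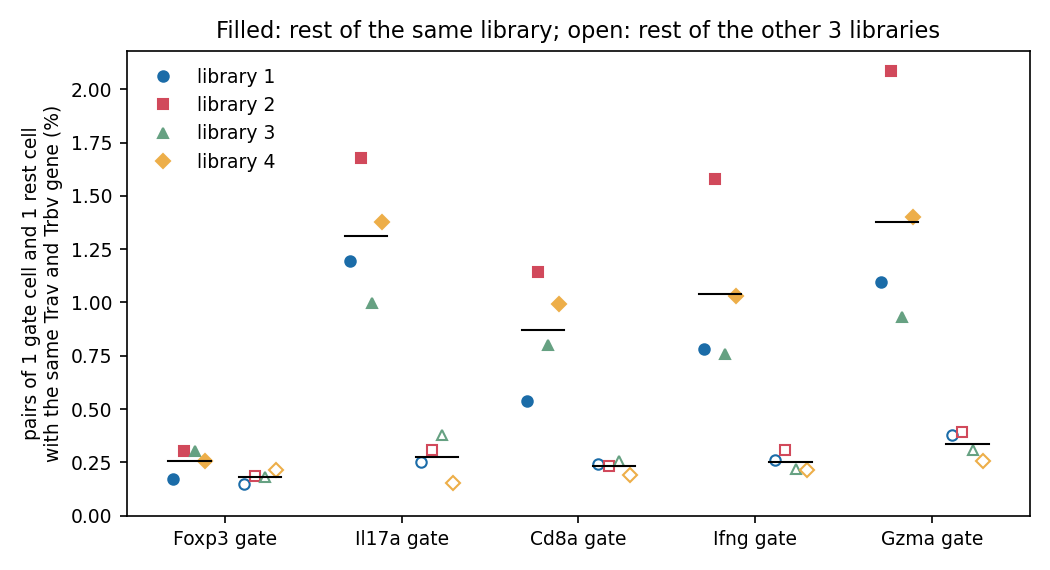
Chance that a cell of a gate and a cell of the rest have the same Trav and Trbv gene (% of pairs of cells). Filled symbols are the rest of the same library, open symbols the rest of the other 3 libraries, and black lines the means. The filled symbols of the Foxp3 gate (0.171% to 0.302%) lie close to its open ones (0.150% to 0.212%), whereas those of the other gates start at 0.538%.

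The pairs that led in the Foxp3 gate were also small elsewhere. Trav4-2 with Trbv31 held 13 of the 300 cells of the gate with both genes in library 1, and 3 cells outside the gate there. Trav7n-4 with Trbv17 held 15 cells of the gate in library 2 and 3 outside it. Trav12-2 with Trbv1 held 24 cells of the gate in library 4, of 38 in that library. Trav14n-3 with Trbv1 held 9 of 14 cells in library 3. In the Cd8a gate the leading pairs were Trav14-2 with Trbv16 in library 2 (10 of 12 cells there), Trav5-4 with Trbv1 in library 3 (7 of 10) and Trav7-5 with Trbv13-3 in library 4 (22 of 108), and in library 1 Trav16 with Trbv31 (4 of 95).

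The share of single Trav genes was tested with edgeR's quasi-likelihood test on cell counts per library, gate and leading gene, with library as a block, over the 59 genes that led in at least 40 cells. Over all gates, 2 genes differed with a Benjamini-Hochberg adjusted p under 0.05 (3.39% of those tested). The count was 0 without library 1, 3 or 4, and 4 without library 2. It was also 0 with cells thinned to 2000 UMIs or with tied cells left out, and in all of these settings Trav12n-3 fell under the 40 cells needed for testing. Trav12n-3 (ENSMUSG00000093915, chr14:53240745-53241244) led in 2.90%, 1.09%, 0.669% and 0.413% of cells of the Foxp3 gate in libraries 1 to 4, against 0.301%, 0.298%, 0.0951% and 0.333% in the rest (adjusted p = 0.0118 in edgeR's test over all gates). It was above the rest in 4 of 4 libraries, and no cell of the Gzma or Cd8a gate was led by it. These are 16 of its 42 cells, and the last exon of Trav12n-3 is identical to that of Trav12d-3, with 2.27% of 90-base stretches its own. Trav4-2 (ENSMUSG00000076826, chr14:53418349-53418873) led in 4.84%, 0%, 1.34% and 1.65% of the Foxp3 gate, against 0.251%, 0.171%, 0.428% and 0.476% in the rest (edgeR adjusted p = 0.0118). Of its 23 cells in the Foxp3 gate, 15 came from library 1, and 13 of these were the pair with Trbv31. Without the most frequent pair of each library and gate, its edgeR adjusted p was 0.481, and without library 1 it was 0.425.

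Against the rest, no single gate had a gene past the threshold in edgeR's test (0.0% called in each of 5 gates). At an unadjusted p under 0.05 there were 3 genes in the Foxp3 gate, 8 in the Il17a gate, 5 in the Cd8a gate, 0 in the Ifng gate and 2 in the Gzma gate. DESeq2 called 0 genes in each as well. In simulated cell counts with 20 of 59 genes changed, the same fit found 10% of genes changed 2-fold and 80% of those changed 4-fold in the Foxp3 gate. In the Foxp3 gate, a difference of 2-fold was therefore mostly not detectable at its cell numbers. The other gates, which differ in size, were not simulated.

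The same question was put to UMIs, summed per library and gate over all cells and fitted over 9578 genes with edgeR. This test includes 53 Trav genes. In the Foxp3 gate 7 of them passed, against 32.1% of all genes. Of these, 3 were higher (18.0% of all genes) and 4 lower (14.1%). In the Il17a gate 7 passed, against 25.2% of all genes, with 3 higher (14.5% of all genes) and 4 lower (10.7%). In the Cd8a gate 6 passed, against 13.3% of all genes, with 0 higher (6.05% of all genes) and 6 lower (7.22%). In the Gzma gate 1 passed, against 13.5% of all genes, with 0 higher (7.25%) and 1 lower (6.22%). In the Ifng gate 0 passed, against 8.84% of all genes (4.33% higher and 4.51% lower), with 5 at an unadjusted p under 0.05 and 0 in DESeq2. These counts depended on the fit. DESeq2 called 3 Trav genes in the Foxp3 gate (3 higher, 0 lower), against 31.2% of all genes. It called 7 in the Il17a gate (0 higher, 7 lower), against 25.1%, and 9 in the Cd8a gate (0 higher, 9 lower), against 13.9%. The genes that edgeR called lower in the Foxp3 gate or higher in the Il17a gate were thus not called so by DESeq2. With no filter on low counts, 99 Trav genes were tested. The calls were then 33, 37, 38, 29 and 23 in the Foxp3, Il17a, Cd8a, Ifng and Gzma gates. The shares of all genes called were 18.8%, 13.4%, 9.06%, 6.12% and 7.95% in the same order. Without the library block, the calls were 2, 2, 3, 0 and 0 of 53 Trav genes, against 24.3%, 20.2%, 10.7%, 3.28% and 8.12% of all genes. In edgeR with the filter and the block, no gate had a larger share of called Trav genes than of all genes, both directions together. With no filter every gate had a larger one, as had the Cd8a gate in DESeq2. In the Cd8a gate of the filtered edgeR fit, the 6 lower Trav genes of 53 were a larger share than the 7.22% of all genes. No test of Trav genes as a set was made. The median log2 fold change of the 53 genes was -0.02 in the Foxp3 gate, -0.55 in the Il17a gate, -0.96 in the Cd8a gate, -0.34 in the Ifng gate and -0.38 in the Gzma gate, against -0.01, -0.03, 0.01, -0.00341 and -0.00111 over all genes.

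In the Foxp3 gate 4 of the 7 moved in the same direction in all 4 libraries. Trav7d-4 had 15.2, 7.02, 26.8 and 43.1 CPM (UMIs scaled to a common library total) in libraries 1 to 4 of the gate, against 5.80, 4.20, 11.7 and 22.2 CPM in the rest. Its log2 fold change was 1.11 ± 0.23 (SE; edgeR adjusted p = 0.000536). Reads of Trav7d-4 and Trav7-4 can be told apart only where they cover 1 of the 2 differing bases. Trav16d-dv11 had 6.16, 17.2, 5.45 and 3.59 CPM in the gate, against 1.18, 2.71, 1.62 and 3.02 CPM in the rest (log2 fold change 1.96 ± 0.41, edgeR adjusted p = 0.000561). Library 4 was nearly level. Trav4-2 had 25.9 CPM in library 1 of the gate and 3.12 to 8.92 CPM in the others, against 1.85 to 5.0 CPM in the rest (edgeR adjusted p = 0.00217, and 0.218 without library 1). Trav13n-1 was lower, at 5.34, 16.4, 4.95 and 13.3 CPM, against 24.3, 61.0, 18.9 and 13.5 CPM in the rest (log2 fold change -1.66 ± 0.40, edgeR adjusted p = 0.00204). Again library 4 was nearly level, and Trav13n-1 differs from Trav13d-1 at 1 base of the last exon.

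In the Il17a gate 3 of the 7 moved the same way in all libraries, all lower. Trav13-1 had 28.4, 10.2, 5.93 and 0 CPM in the gate, against 65.0, 44.8, 31.8 and 23.5 CPM in the rest (log2 fold change -1.59 ± 0.42, edgeR adjusted p = 0.00618). Trav21-dv12 had 10 UMIs in the gate (5.44, 0, 1.98 and 0 CPM, against 7.16 to 22.0 CPM in the rest, edgeR adjusted p = 0.0410). Trav7-3 had 1 UMI in the gate, against 7.07 to 10.6 CPM in the rest. The ratio of its summed levels was 0.0298, with a 95% counting interval of 0.000751 to 0.167 (edgeR adjusted p = 0.0213). The 3 genes called higher there did not move alike in the 4 libraries. Trav19 had 0, 306, 25.7 and 0 CPM in the gate, against 3.61, 57.9, 26.8 and 4.14 CPM in the rest, and its log2 fold change of 1.71 turned to -0.83 without library 2. Trav8-1 had 0, 82.5, 441 and 8.21 CPM in the gate, against 13.2, 32.9, 29.2 and 7.16 CPM in the rest, and its log2 fold change was 2.16 with all libraries and 0.44 without library 3. Trav14-1 had 6.05, 165, 15.8 and 235 CPM in the gate, against 13.6, 85.0, 23.3 and 46.1 CPM in the rest (log2 fold change 1.34 ± 0.43, edgeR adjusted p = 0.0245).

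The Cd8a gate had less of 5 genes in all 4 libraries. Trav7-4 stood at 22.8, 21.8, 21.4 and 10.7 CPM in the gate, against 107, 74, 44.5 and 83.2 CPM in the rest, with no overlap (log2 fold change -2.32 ± 0.62, edgeR adjusted p = 0.0112). Trav14n-3 stood at 41.1, 26.6, 7.12 and 3.07 CPM in the gate, against 53.6, 62.6, 83.0 and 51.9 CPM in the rest (log2 fold change -2.10 ± 0.53, edgeR adjusted p = 0.00673). Trav7d-4, Trav12-1 and Trav17 had 3, 2 and 3 UMIs in the whole gate. Their ratios to the rest were 0.106 (95% counting interval 0.0219 to 0.313), 0.0505 (0.0061 to 0.183) and 0.0775 (0.0159 to 0.227), with edgeR adjusted p = 0.00166, 0.00281 and 0.0393. Without library 4, 1 Trav gene was called in this gate. The sums include cells without a Trav UMI, which were 184 of the 306 cells of the gate in library 4. Trav UMIs per cell averaged 3.27 ± 1.16 in the gate, against 4.55 ± 0.424 in the rest. The test of shares among cells with a Trav UMI called 0 genes in this gate (smallest edgeR adjusted p = 0.418). The part of Trav detection in the lower levels was not tested. Trav12-1 was also lower in the Gzma gate, at 8.0, 1.09, 0 and 12.7 CPM, against 13.7, 5.42, 6.30 and 35.1 CPM in the rest (edgeR adjusted p = 0.0436). In bulk sums of this kind, fewer cells led by a gene and less RNA per cell cannot be told apart.

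Of the rest of the receptor, the constant segment Trac was at 298 to 420 CPM in the Cd8a gate and at 381 to 411 CPM in the rest (log2 fold change -0.25 ± 0.07, edgeR adjusted p = 0.0268), lower in 3 of 4 libraries. The CD3 chains Cd3e and Cd3g were higher in the Cd8a gate, by 0.38 ± 0.04 and 0.35 ± 0.05 on the log2 scale, and in the Gzma gate, by 0.30 ± 0.04 and 0.30 ± 0.05. Markers of other cells differed between gates too. The 4 B cell genes summed to 37.5 to 45.1 CPM in the Foxp3 gate, against 8.12 to 11.6 CPM in the rest, and the 5 epithelial genes to 83.1 to 108 CPM against 15.1 to 20.2 CPM. The 8 myeloid genes were also higher there (225 to 267 against 176 to 214 CPM). The 4 stromal or endothelial genes were lower (17.8 to 27.7 against 41.8 to 44.1 CPM). The 4 plasma cell genes overlapped, at 14.4 to 1863 CPM in the Foxp3 gate and 192 to 1021 CPM in the rest. The 9 gamma-delta T cell genes, of which 8 were in the table, summed to 940 to 1651 CPM in the Cd8a gate, against 222 to 356 CPM in the rest. This sum does not count gamma-delta T cells, because cells with a Trav UMI carried gamma chain RNA as well. Of these cells, 25.6% had a UMI of the gamma chain gene Trgv2 and 13.2% of Tcrg-C2, but 0.475% of the delta chain gene Trdc. The part of these marker lists in the Trav results was not tested.

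Detection of Trav transcripts itself differed between gates. A Trav UMI was found in 64.8%, 80.0%, 69.3% and 39.9% of Cd8a gate cells in libraries 1 to 4, against 75.7%, 80.1%, 77.9% and 79.2% in the rest. Library 4 of the Cd8a gate was far below the others. Means were 84.0% ± 9.69 in the Il17a gate, 80.0% ± 5.59 in the Foxp3 gate, 75.2% ± 4.02 in the Ifng gate and 70.7% ± 8.51 in the Gzma gate, against 78.2% ± 1.89 in the rest. When each cell was thinned to 2000 UMIs and gated again, which 20752 cells allowed, a Trav UMI was found in 75.2% ± 10.7 of the Il17a gate, 67.1% ± 5.01 of the Foxp3 gate, 64.5% ± 6.17 of the Ifng gate, 60.2% ± 10.4 of the Gzma gate and 54.8% ± 20.0 of the Cd8a gate, against 69.6% ± 3.28 of the rest. Median depths were 5216 UMIs in the Il17a gate, 4483 in the Foxp3 gate, 3730 in the Cd8a gate, 3961 in the Ifng gate and 3590 in the Gzma gate, against 3747 in the rest.

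Among the 5071 cells without a Trav UMI, 2 beta chain genes stood out, Trbv1 in library 4 and Trbv19 most of all in libraries 1 and 3. Trbv1 led in 47.0% of those with a Trbv UMI in library 4, 574 cells, and in 3.38%, 5.34% and 4.47% in libraries 1 to 3. In cells with a Trav UMI it led in 6.90%, 3.32%, 6.86% and 9.19% in libraries 1 to 4, so that it was more frequent without a Trav UMI in libraries 2 and 4 and less frequent in libraries 1 and 3. Trbv19 led in 31.0%, 8.56%, 35.9% and 16.1% of cells without a Trav UMI in libraries 1 to 4, against 8.13%, 12.7%, 6.68% and 9.86% of cells with one, less frequent without one in library 2. Looked at from the beta chain, 62.6% of all Trbv1 cells of library 4 lacked a Trav UMI, against 14.6%, 26.9% and 16.3% in libraries 1 to 3. Of Trbv19 cells, 57.1% and 61.7% lacked one in libraries 1 and 3, and 13.4% and 34.9% in libraries 2 and 4. A Trbv UMI was found in 92.8% ± 1.25 of cells without and 96.1% ± 0.760 of cells with a Trav UMI. Median depth was 3597 UMIs without and 3933 with a Trav UMI, and Trac was found in 68.8% ± 2.52 and 75.1% ± 2.85 of these cells. Of the delta chain variable genes, Trdv1 was found in 1.80%, 6.89%, 1.94% and 6.07% of cells without one in libraries 1 to 4, against 0.530%, 2.07%, 1.69% and 0.936% of cells with one. Trdv2-2 was found in 6.34% against 0.573% in library 2, and in 0.0807% to 0.624% against 0.269% to 0.546% in the others. Trdc was found in 0.209% ± 0.244 of cells without and 0.459% ± 0.314 of cells with a Trav UMI.

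**Figure D5:**
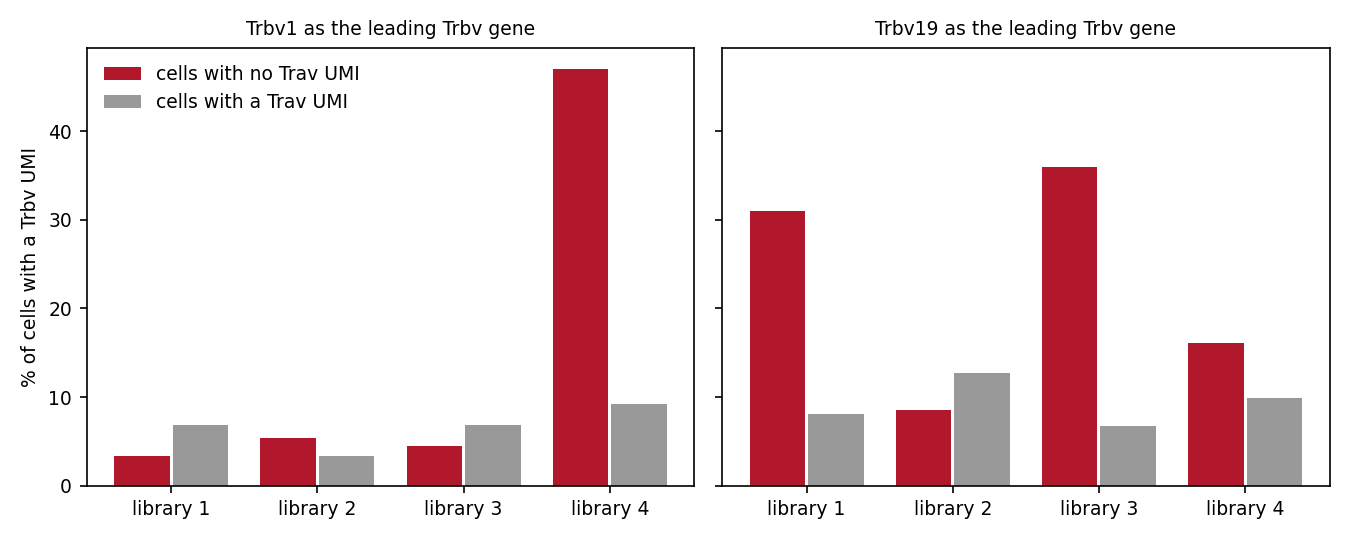
Trbv1 and Trbv19 as the leading beta chain gene in cells without and with a Trav UMI (% of cells with a Trbv UMI, bars, 1 pair of bars per library). Trbv1 reaches 47.0% in cells without a Trav UMI in library 4, and Trbv19 reaches 31.0% and 35.9% in libraries 1 and 3.

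Of the Trbv1 cells of library 4 without a Trav UMI, 162 lay in the Cd8a gate, which held 306 cells of that library. Another 161 lay in the Ifng gate (of 1422 cells), 88 in the Gzma gate (of 361) and 157 in the rest (of 2650). The Foxp3 and Il17a gates held 6 and 0 of them, among 276 and 134 cells. In the Cd8a gate of library 4, the Trbv1 cells made up 92.0% of the cells that had a Trbv but no Trav UMI. These 162 cells had 0 Trdv UMIs and 0 of Trdc, the delta chain constant gene, which allows a share of up to 1.85% for Trdc. Trac was found in 65.4% of them, Cd3e in 99.4% and Cd4 in 79.0%, against 68.9%, 100% and 73.8% of the 122 cells of that gate and library with a Trav UMI. Cd8b1, the CD8 beta chain, was found in 0 of 162 and in 11.5% of the 122. Itgae, the integrin chain of cells beside the epithelium, and the granzyme Gzmb were found in 89.5% and 87.0% of them, against 84.4% and 81.1% of the 122 and 20.2% and 16.9% of the rest of library 4, so that these traits were shared by the gate. With Trbv1 and Trbv19 cells left out, a setting added after the data were seen, 77.0% ± 2.68 of the Cd8a gate had a Trav UMI, against 81.6% ± 3.23 of the rest. These 2 genes were chosen because their cells often lacked a Trav UMI, so leaving them out raises detection by construction. Which alpha chain the Trbv1 cells carry is not shown by these counts.

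More than 1 Trav gene was seen in 42.1% ± 3.75 of the cells with a Trav UMI, and the second gene had at least 2 UMIs in 19.8% ± 2.49. It belonged to the subgroup of the leading gene in 8.84% ± 4.70 of the cells with 2 genes. In 5.64% ± 0.545 of cells the lead was tied, and the gene listed first was taken. The part of doublets that were not removed in this share was not tested.

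The receptors of innate-like T cells were rare or could not be measured. Trav11 (ENSMUSG00000096615, chr14:53519303-53519859) had 7 UMIs and led in 1 cell, and Trav11d had none. With 1 unique 90-base stretch of 254 in Trav11 and none in Trav11d, as the sequences given above show, these values say nothing about how many NKT cells were present. Traj18, the joining segment of their receptor, had a UMI in 29 of the 16430 cells with a Trav UMI and in 4 of the others. How well these counts register joining segments was not tested, so Traj18 does not count NKT cells either. Trav11n, whose stretches are all unique, led in 21, 3, 2 and 0 cells of libraries 1 to 4, and 10 of these 26 cells were in the Foxp3 gate. In library 1 the partner was Trbv13-2 in 16 of 20 cells. None of the 26 had a UMI of Zbtb16, the transcription factor of NKT and MAIT cells, which allows a share of cells with a UMI of up to 11.5% and does not limit how many express it, and no Traj18 UMI was found in them.

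Trav1 (ENSMUSG00000076758, chr14:52427928-52428876) could be measured, since all of its stretches are unique. It led in 0.202%, 0.375%, 0.661% and 0.572% of cells in libraries 1 to 4, 74 cells in all. Of these, 13 were in the Foxp3 gate, 14 in the Ifng gate, 4 in the Gzma gate, 43 in the rest and none in the Il17a or Cd8a gates. Its share in the Foxp3 gate was 0.323%, 0.817%, 2.01% and 1.24% in libraries 1 to 4, against 0.201%, 0.426%, 0.713% and 0.667% in the rest, higher in 4 of 4 libraries on 13 cells. The difference did not pass the test (log2 fold change 1.07 ± 0.74, edgeR adjusted p = 0.571). In UMI sums Trav1 was higher in the Foxp3 gate in 3 of 4 libraries, and lower in library 2 (2.34 against 8.30 CPM). That difference did not pass either (log2 fold change 0.82 ± 0.46, edgeR adjusted p = 0.192). The most frequent partner was Trbv4 in libraries 1 (3 of 7 cells) and 2 (7 of 16), Trbv3 in library 3 (10 of 27) and Trbv13-2 in library 4 (10 of 22). Among the 25 genes of a list for innate-like T cells, 12 were found in a larger and 13 in a smaller share of Trav1 cells than of other Trav cells. The list summed to 3189 CPM in Trav1 cells and 3004 CPM in the others. Zbtb16, Klrb1a, Klrd1, Klrk1 and Slc4a10 had no UMI in the 74 cells, which allows a share of cells with a UMI of up to 4.05% for each. They were found in 0.00611% (Slc4a10) to 1.23% (Klrd1) of other Trav cells, so a difference was not detectable with 74 cells. Zbtb16 was found in 0.181% ± 0.124 of all cells with a Trav UMI. Traj33, the joining segment of the MAIT receptor, had no UMI in any cell, with or without Trav1. A gene at 0 in every cell cannot tell Trav1 cells from others, so this does not show that MAIT receptors were absent. No test of gene expression in Trav1 cells was made, because libraries 1 and 2 held 8 and 17 of them, under the minimum of 20.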

How the data were processed

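Single-cell RNA was measured in 4 libraries of sorted CD4 T cells of 1 group. The authors deposited UMI counts per gene and cell, and the submitters' processing notes list Cell Ranger 3.0.2 and the build mm10. The lowest barcode in the deposited matrices held 502 UMIs. How Cell Ranger's reads that match several Trav copies were treated is not given in the sources used here. The files hold no table that maps cells to receptor sequences, and none was analysed here.

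A cell had to show 500 genes and 1000 UMIs, with no more than 10% of UMIs mitochondrial, which 22534 of 22904 did. Scrublet (scanpy 1.11.5) scored doublets, and the highest scores were removed at 0.8% per 1000 barcodes (1033 cells), which left 21501. Positions and transcripts came from GENCODE (GRCm38). A 90-base stretch counted as unique when no other Trav or Trdv transcript held it. The nearest member was the one with fewest differing bases in the last exon, among members whose exon length differed by at most 10 bases. Counts of cells per library, gate and leading gene, and UMIs summed per library and gate, were fitted with edgeR 4.0.16 (glmQLFit and glmQLFTest, R 4.3.3). Library was a block because the gates of a library, which share no cell, are made of cells of the same library. Adjustment was by Benjamini-Hochberg at 0.05. The cell counts used the number of cells with a Trav UMI as offset, and the UMI sums used TMM and filterByExpr. DESeq2 1.42.0 was an alternative. Diversity was the unbiased Simpson index, compared by an exact paired permutation test. In simulated UMI sums of 9578 genes, the fit recovered 95% of 200 genes changed 2-fold in the Foxp3 gate.

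Shares are means and SD over 4 libraries. Limits for a count of 0 use 3 counts, and intervals (95%, exact) and limits cover counting error only. Named genes were the 10 most used, Trav11, Trav11d and Trav1, the 5 most uneven over libraries, up to 10 called genes in each direction per gate that moved alike in 4 libraries, and the most frequent pair of each library and gate. Trav12n-3 and Trav4-2 (called over all gates), Trav11n, Trav8-1, Trav19, Trbv1, Trbv19 and the markers of the Trbv1 cells were added after their values were seen. Members, gates and lists were chosen with earlier results of these data known. Alternatives changed the cells kept, doublets, ties, minimum UMIs, gates, depth, frequent pairs, scaling, tool, filter, block and libraries.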

Additional observations from a re-analysis of the deposited data

Results flagged for a closer look

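Of 41 sets of 4 library values examined (shares of named Trav genes, diversity and detection by gate), 10 had 1 library far from the others by Dixon's criterion for 4 values. Chance flags about 1 in 20 sets that were not chosen for their spread. The 5 most uneven genes were chosen for it and make up 4 of the 10, so this count is not set against that rate. Among the most used genes these were Trav9-1 at 6.05% of cells with a Trav UMI in library 3, Trav14-1 at 7.98% in library 2 and Trav4-4-dv10 at 5.70% in library 3. Among the most uneven genes, Trav4d-2 stood at 1.11% in library 1, Trav8d-1 at 3.11% in library 3, Trav6-4 at 2.82% in library 3 and Trav6-1 at 1.18% in library 3. Trav13n-1 stood at 4.05% in library 2 and Trav13n-3 at 0.442% in library 4. In the rest, the chance that 2 cells share the leading Trav gene was 2.95% in library 3, below the other libraries.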

How the results depend on the processing

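The count of Trav genes whose share differed among gates (2) was 2 with all barcodes, doublets kept, TMM, no filter or the most frequent Trav-Trbv pairs left out. It was 5 in DESeq2, 1 with a leading gene of at least 2 UMIs or stricter gates, 0 with subgroups, 2000 UMIs per cell or ties left out, and 0 to 4 without 1 library. Without library 2 it was 4, and without library 1, 3 or 4 it was 0. With ties left out, thinned, with at least 2 UMIs or without 1 library, Trav12n-3 fell under the minimum of 40 cells and was not tested. In the Foxp3 gate the count of 0 was 0 to 2 without 1 library (2 without library 2), and in the Il17a gate it was 1 with stricter gates. UMI sums with no filter on low counts tested 99 Trav genes. The counts were then 33, 37, 38, 29 and 23 in the Foxp3, Il17a, Cd8a, Ifng and Gzma gates. Of all genes, 18.8%, 13.4%, 9.06%, 6.12% and 7.95% were called in the same order. With no replicate block the Trav counts from UMI sums were 2, 2, 3, 0 and 0, against 24.3%, 20.2%, 10.7%, 3.28% and 8.12% of all genes. The cell counts gave 0 over all gates with no block. The pairing is that gates of 1 library come from the same library. At an unadjusted edgeR p under 0.05, the cell counts had 3, 8, 5, 0 and 2 genes with the block. Without it there were 2, 5, 3, 0 and 1, each in the order of gates given above. After adjustment, the calls against the rest were 0 in each gate with and without the block. DESeq2 gave 3 in the Foxp3 gate and 0 in the Gzma gate. Without 1 library the counts ranged over 6 to 12 (Foxp3, 12 without library 4), 1 to 8 (Cd8a, 1 without library 4), 0 to 2 (Ifng, 1 without library 3 and 2 without library 4) and 1 to 3 (Gzma, 3 without library 1). For single genes and alternatives, 124 values kept direction and side of the threshold, 64 lost the call, and Trav19 in the Il17a gate ranged over -0.83 to 2.01 without 1 library, with -0.83 without library 2. For the other changes the cause was not tested.

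Diversity changed by more than its spread with subgroups (10.4%, 15.2%, 14.1%, 10.96% and 13.0% in the Foxp3, Il17a, Cd8a, Ifng and Gzma gates, and 10.8% in the rest) and in the Il17a gate with at least 2 UMIs (9.39%) or the most frequent pair left out (5.39%). Thinned detection shares were 67.1% (Foxp3), 64.5% (Ifng), 60.2% (Gzma) and 69.6% (rest). With Trbv1 and Trbv19 cells left out, added after seeing the data, they were 81.2% (Ifng), 80.5% (Gzma) and 81.6% (rest). Also added after seeing the data were other sizes of a frequent pair. With at least 10 cells the share was 34.8% in the Foxp3, 79.0% in the Il17a, 66.9% in the Cd8a, 68.2% in the Ifng and 78.1% in the Gzma gate, against 66.2% in the rest. With at least 50 cells it was 4.19% in the Foxp3, 38.8% in the Il17a, 27.1% in the Ifng and 39.4% in the Gzma gate, against 24.2% in the rest, and the Cd8a gate, below the rest at 20 cells, was above it at 30.4%. The Foxp3 gate was lower than the rest in 4 of 4 libraries at each size. Tests of Trav11 and Trav1 cells against other Trav cells were not run, since 1 and 74 cells were found. Members without a unique stretch and cells without a Trav UMI limit every share, and joined sequences are needed to tell clones from shared genes.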
